A study of Homo sapiens with 8 samples.

Results

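Genes of cholesterol synthesis and its control were followed across the 8 RNA libraries of this series, namely HMGCS1, IDI1, FDFT1, SQLE, SC5D, DHCR7, INSIG1 and SREBF2. They were taken as a named list of gene symbols, 8 of the 58735 genes in the deposited tables, and their values are sums of the expected counts of all isoforms of each gene. BEAS-2B, an immortalised human bronchial epithelial cell line, was grown on collagen-coated inserts and exposed at the air–liquid interface for 2 h to clean air (CA) or to clean air with 1 ppm formaldehyde (FA), and was then left to recover in fresh medium for 6 h. RNA of each culture was depleted of ribosomal RNA and sequenced before (input, IN) and after (IP) immunoprecipitation with an antibody against 8-oxo-7,8-dihydroguanosine (8-oxoG), the common oxidised form of guanosine in RNA. The study's methods and the sample labels give its clone as 15A3, and the extraction protocol in the labels as 2E2. The 4 groups CA_IN, FA_IN, CA_IP and FA_IP held 2 libraries each, from cultures numbered 1 and 3 in the library names. BEAS-2B is an established line and lacks the secretory, ciliated and immune cells of an airway, and all groups, controls included, were without apical medium during the exposure.

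Cells make cholesterol from acetyl-CoA by the mevalonate pathway. HMGCS1 forms HMG-CoA at its entry, IDI1 isomerises isopentenyl diphosphate to dimethylallyl diphosphate, FDFT1 joins farnesyl units to squalene at the first step committed to sterols, SQLE oxidises squalene, and SC5D and DHCR7 act late, on the double bonds of the sterol rings. The transcription factor SREBP2, the product of SREBF2, is held in the endoplasmic reticulum membrane by SCAP and INSIG1 when sterols are plentiful, and is cut and sent to the nucleus when they are scarce, where it activates the genes of synthesis, of uptake, and INSIG1 and SREBF2 themselves. The list therefore held 6 enzymes of synthesis and 2 control genes and, although it was labelled as synthesis and uptake, no uptake receptor. Genes of uptake were looked at in a separate list of 9.

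The input libraries held 26.2 to 45.1 M expected counts and the pull-down libraries 16.9 to 23.7 M. All 8 members passed the filter on low counts, and their counts per library ran from 887 to 10720 so that counting error was at most 3.36% in any library. All 6 epithelial markers were detected (KRT8, KRT18, KRT19, KRT5, CDH1 and EPCAM), with a summed level of 538 to 713 TPM in the input libraries and 1224 to 1647 TPM in the pull-down libraries. Of 11 markers of leukocytes, endothelium, fibroblasts and differentiated airway cells, 3 reached 10 counts in each group, and the sum of the 11 was 2.45 to 3.38 TPM in input and 4.65 to 6.78 TPM in pull-down. The 3 were the leukocyte marker CD68 (74.1 to 379 counts per library), the fibroblast marker COL1A1 (159 to 361) and the endothelial marker PECAM1 (9 to 26). The leukocyte marker PTPRC and the secretory cell marker SCGB1A1 each had at most 2 counts in any library. In a bulk sample, a change in the number of cells that use a gene and a change in its RNA per cell cannot be told apart.

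Compared per length, as the authors' TPM (each isoform's counts divided by its length and scaled to a fixed total per library), FDFT1 was the most abundant member in clean air input, at 57.0 TPM ± 11.4 (SD, n = 2), the 654th of the 18242 genes tested. IDI1 followed at 41.8 TPM ± 6.31 and HMGCS1 at 29.2 TPM ± 12.3. DHCR7 reached 18.2 TPM ± 4.09, SC5D 12.9 TPM ± 0.354, SQLE 12.5 TPM ± 2.43, SREBF2 12.2 TPM ± 0.445 and INSIG1 10.9 TPM ± 3.23 (each n = 2). Neighbours in this order overlapped in their 2 libraries, except FDFT1 (49.0 and 65.0 TPM) and IDI1 (37.4 and 46.3 TPM), and DHCR7 (15.3 and 21.1 TPM) and SC5D (12.6 and 13.1 TPM). Every member stood above the 83rd percentile of the tested genes, from 83.6 for INSIG1 to 96.4 for FDFT1.

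Most members are read from 1 dominant isoform. SQLE-201 carried 98.7% of the SQLE counts over the 8 libraries, SREBF2-201 96.8%, DHCR7-201 90.2% and IDI1-201 82.0%. HMGCS1 was divided between HMGCS1-202 with 56.8% and HMGCS1-201 with 39.1%, whose share ran from 26.6% to 46.5% between libraries. SC5D was divided between SC5D-202 (52.2%) and SC5D-201 (33.2%), and INSIG1 between INSIG1-201 (81.1%) and the shorter INSIG1-206 (12.98%). FDFT1 was spread over FDFT1-201 (46.4%), FDFT1-208 (30.0%) and FDFT1-202 (10.3%). Isoform shares are estimates from reads that several isoforms share, and gene sums are used from here on. In the GENCODE 44 annotation of GRCh38, 703 of the 3466 exonic bases of the leading HMGCS1 isoform also lie in a gene on the opposite strand, ENSG00000261604, with at most 1.61 TPM, and 254 of the 5237 bases of SREBF2 lie in SREBF2-AS1, with at most 0.92 TPM. The overlap of IDI1 was 173 of 2739 bases with IDI2-AS1, at most 0.61 TPM. The study's RSEM command set no strand option, so that reads in these overlaps cannot be assigned to 1 of the 2 strands.

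The member that varied most between cultures was HMGCS1 (chr5:43287470-43313512, minus strand, GRCh38). Its level, in CPM (counts relative to the library total, scaled by TMM factors), was 141 in replicate 1 and 289 in replicate 3 of CA_IN. It was 153 and 302 CPM for FA_IN, then 139 and 262 CPM for CA_IP, then 154 and 287 CPM for FA_IP. All 4 libraries of the cultures numbered 3 lay above all 4 of those numbered 1, whatever the treatment or fraction. INSIG1 (chr7:155297776-155310235) had the next largest gap, with 47.2 and 73.1 CPM for CA_IN, then 50.04 and 64.4 CPM for FA_IN, then 46.9 and 73.7 CPM for CA_IP, then 49.1 and 64.1 CPM for FA_IP. In these values too, replicates 1 and 3 did not overlap.

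The same order held along the pathway. FDFT1 (chr8:11795573-11839395) read 194 and 268 CPM (replicates 1 and 3) for CA_IN, then 231 and 310 CPM for FA_IN, then 214 and 308 CPM for CA_IP, then 258 and 352 CPM for FA_IP. SQLE (chr8:124998497-125022283) read 77.5 and 105 CPM, 66.1 and 92.1 CPM, 81.4 and 106 CPM, and 74.4 and 91.0 CPM in the same order of groups. IDI1 (chr10:1039152-1049119) read 177 and 235 CPM, 166 and 231 CPM, 176 and 220 CPM, and 184 and 219 CPM. Replicate 3 was the higher library in each of these pairs. DHCR7 (chr11:71428193-71452868) read 88.7 and 120.3 CPM for CA_IN, then 105 and 118 CPM for FA_IN, then 107 and 152 CPM for CA_IP, then 117 and 146 CPM for FA_IP. SREBF2 (chr22:41833105-41907306) read 138 and 153 CPM, 147 and 161 CPM, 156 and 180.5 CPM, and 156 and 175 CPM, with replicate 3 higher in every pair by a smaller margin. SC5D (chr11:121292681-121313410) was the exception, at 63.2 and 68.6 CPM, 55.7 and 72.4 CPM, 57.7 and 55.9 CPM, and 59.95 and 61.8 CPM, with replicate 1 higher in CA_IP.

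**Figure D1:**
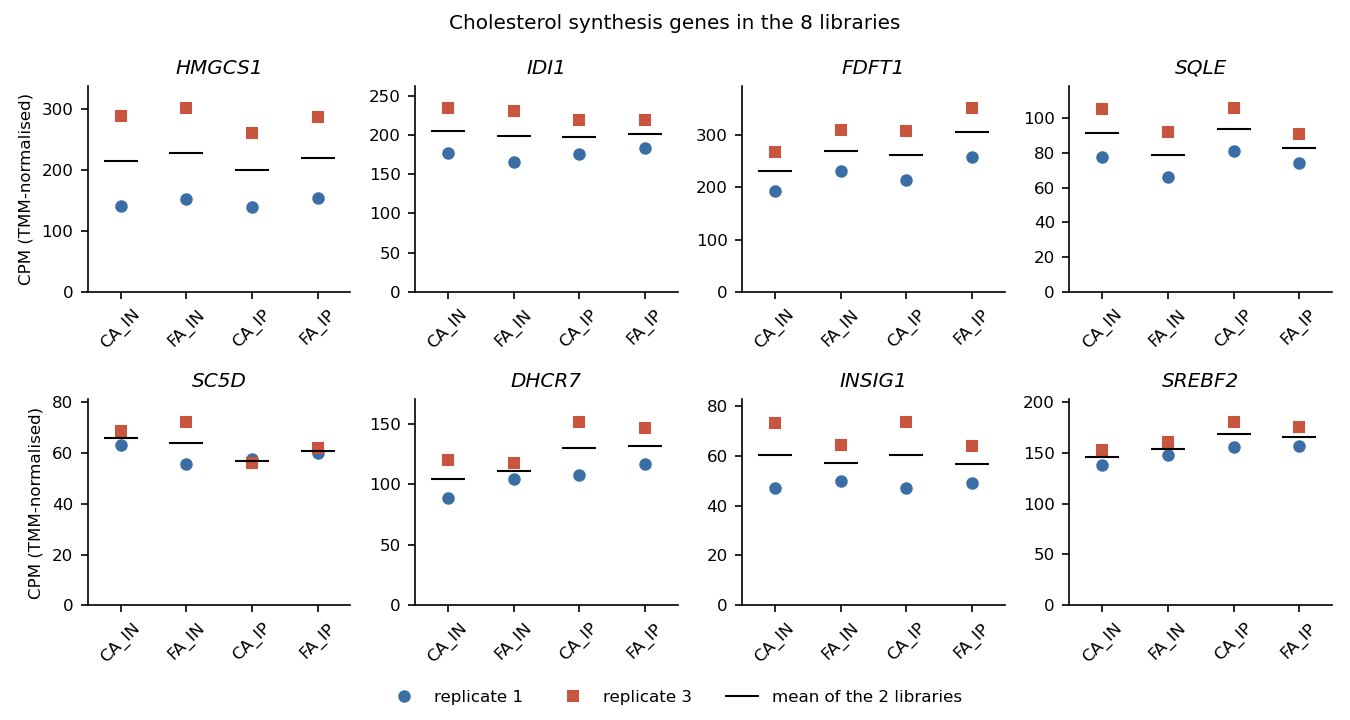
Level of each of the 8 genes in each library, in CPM after TMM scaling on linear axes that start at 0; circles are replicate 1, squares replicate 3 and bars the mean of the 2 libraries of a group. Squares lie above circles in all 4 groups for 7 of the 8 genes, with the widest gap in HMGCS1 (139 to 154 CPM against 262 to 302 CPM).

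Replicate 3 was thus above replicate 1 in all 4 groups for 7 of the 8 members, against 18.2% of all tested genes (3318 of 18242). The members were chosen with earlier results of these data known, and this contrast after the values were seen. The 2 fractions of a culture come from the same RNA, so that the 4 groups rest on 4 cultures. The contrast is given without a test. The mean log2 difference over the 4 groups was 0.95 in HMGCS1 (range 0.89 to 1.03), a 1.94-fold higher level, at the 97.4th percentile of the tested genes. It was 0.51 in INSIG1, 0.47 in FDFT1, 0.40 in SQLE, 0.36 in IDI1, 0.36 in DHCR7, 0.16 in SREBF2 and 0.12 in SC5D. HMGCS1 was the only member with a difference of at least 0.5 in every group, which 1.4% of tested genes showed. The median of the members was 0.38, and that of all tested genes was -0.012. Within each group the members' median was 0.44 in CA_IN, 0.40 in FA_IN, 0.44 in CA_IP and 0.31 in FA_IP.

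Other genes of the pathway were taken from 6 lists, which were also chosen with earlier results of these data known. In the upper mevalonate and isoprenoid list, 5 of 7 genes were higher in replicate 3 in all 4 groups and none was lower in all 4, with a median of 0.37; MVD, the mevalonate diphosphate decarboxylase, had the largest mean difference (0.67), and GGPS1, which leads away from sterols to geranylgeranyl diphosphate, the lowest (-0.028). In the sterol branch, from lanosterol onward, 8 of 9 were higher in all 4 groups, with a median of 0.28, a highest value of 0.49 in HSD17B7 and a lowest of -0.058 in LBR, which is also a protein of the nuclear envelope. All 8 genes of fatty acid synthesis were higher in all 4 groups, with a median of 0.34 and a highest value of 0.81 in FASN, the fatty acid synthase. In the remaining lists replicate 3 was higher in all 4 groups for 6 of 9 genes of uptake and trafficking (median 0.18), 3 of 6 genes of SREBP control other than the members (median 0.20) and 1 of 4 genes of efflux and oxysterol sensing (median 0.062), of which 1, NR1H2, was lower in all 4 groups. These shares were not compared by a test. LIPA, the lysosomal lipase that frees cholesterol from its esters, had the largest difference in the uptake list (0.41).

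**Figure D2:**
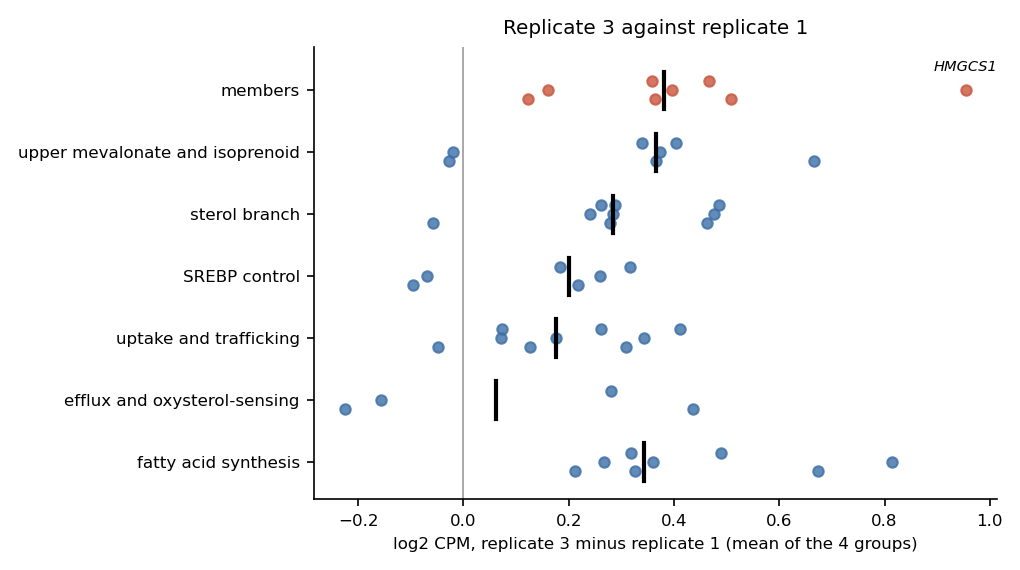
Difference in log2 CPM between replicate 3 and replicate 1, averaged over CA_IN, FA_IN, CA_IP and FA_IP; each point is a gene, vertical bars are list medians and the grey line is 0. The 8 members have a median of 0.38 with HMGCS1 farthest to the right at 0.95, and the 8 fatty acid synthesis genes all lie to the right of 0, with a median of 0.34.

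The pattern shared by the members was summarised as the mean over the 8 of each gene's log2 CPM after centring. HMGCS1 (Pearson r = 0.96), IDI1 (0.95) and INSIG1 (0.93) followed the mean of the other 7 members most closely across the 8 libraries, and SC5D least (0.36). Among the 9818 genes with a mean count of at least 200, the 5 genes most like the shared pattern were EFEMP1 (r = 0.996), FADS1 (0.992), TGM2 (0.990), CCDC69 (0.989) and SERPINB3 (0.989), each over 8 libraries. FADS1, a fatty acid desaturase, is the only gene of these 5 in the pathway lists, and CYP51A1, the lanosterol demethylase, ranked 33rd (r = 0.967). EFEMP1 codes for a protein of the extracellular matrix, TGM2 for a transglutaminase and SERPINB3 for a protease inhibitor of squamous epithelium. SERPINB3 had a far larger gap between replicates than any member, a mean log2 difference of 3.35. These correlations describe 8 libraries that share 4 cultures and carry no test.

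Since 7 of the 8 members kept the same order of replicates in every group, the 250 bases before the annotated starts of the members were searched for 2 motifs, in RefSeq promoter windows of GRCh38.p14. The motifs were the sterol regulatory element of SREBP, TCACNCCAC, and CCAAT, the box bound by NF-Y, each on both strands and without overlap between them. The table had 11 windows for 6 members and none for SQLE or FDFT1. The sterol element in these letters was in 1 window, that of SREBF2, 133 bases before the start as TCACCCCAC, against 0.883% of all 35116 windows, and in none of the 49 windows of the pathway lists. CCAAT was in 8 of the 11 windows, in at least 1 window of each of the 6 genes, against 32.0% of all windows and 37.0% of all genes with a window. In the pathway lists it was in 23 of 49 windows and in 20 of 35 genes. The members had 11 windows for 6 genes, beside 35116 for 27305 genes in all, and more windows per gene give more places for a match. The SC5D windows overlap and hold the same site. For 4 genes, 1 window that holds a motif is shown 5′ to 3′ on the strand of the gene. Motif letters are in capitals, to show how the motifs lie. Where an exon begins inside the window, the stretch ends there. The stretches are SREBF2 at chr22:41832855-41833104, HMGCS1 at chr5:43313513-43313662, INSIG1 at chr7:155297628-155297775 and IDI1 at chr10:1049120-1049369. A match of letters is a description of the sequence and no measurement of binding.
SREBF2: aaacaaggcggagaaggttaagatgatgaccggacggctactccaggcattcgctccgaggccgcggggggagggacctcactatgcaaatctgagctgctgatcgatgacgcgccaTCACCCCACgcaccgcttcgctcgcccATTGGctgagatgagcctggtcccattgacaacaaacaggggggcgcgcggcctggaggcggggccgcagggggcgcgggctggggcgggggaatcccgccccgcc
HMGCS1: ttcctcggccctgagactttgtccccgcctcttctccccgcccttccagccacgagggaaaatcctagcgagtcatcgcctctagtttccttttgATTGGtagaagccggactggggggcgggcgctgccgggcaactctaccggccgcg
INSIG1: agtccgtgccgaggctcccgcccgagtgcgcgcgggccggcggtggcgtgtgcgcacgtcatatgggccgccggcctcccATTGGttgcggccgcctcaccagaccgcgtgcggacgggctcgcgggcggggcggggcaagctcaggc
IDI1: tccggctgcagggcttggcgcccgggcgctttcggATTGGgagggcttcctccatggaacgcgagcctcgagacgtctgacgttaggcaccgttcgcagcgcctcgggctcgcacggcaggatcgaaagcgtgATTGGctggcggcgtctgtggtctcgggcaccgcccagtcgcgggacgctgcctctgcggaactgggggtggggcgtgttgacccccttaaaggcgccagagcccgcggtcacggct
ATTGG in capitals is CCAAT read on the opposite strand. It stands in all 4 stretches, which come from windows that hold it. HMGCS1 and IDI1 each also had a window without CCAAT. The windows shown for HMGCS1 and IDI1 each hold 2. The stretch of HMGCS1 shows 1 of them, since the other lies past the start of the exon.

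The comparison of FA_IN with CA_IN asked whether the exposure altered the abundance of these transcripts. No member passed the test: in the fit without pairing, 0 of 8 were called by edgeR's quasi-likelihood test with Benjamini-Hochberg adjustment over 18242 genes, 0 of 8 had an unadjusted p under 0.05, and DESeq2 called 0 of 8. The background was 0.00548% (1 gene, lower, with 611 genes at an unadjusted p under 0.05). The libraries of the 2 groups overlapped for all 8 members, where 33.9% of tested genes did not overlap. The largest estimates were a log2 fold change of 0.23 ± 0.23 (SE) for FDFT1 and -0.20 ± 0.21 for SQLE, each with an adjusted p of 0.945 by edgeR, the lowest of the 8. The members' median log2 fold change was 0.022, beside 0.019 over all tested genes.

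FDFT1 was higher after formaldehyde in each numbered pair. Its log2 difference was 0.25 in replicate 1 and 0.21 in replicate 3 of input, and 0.27 and 0.19 in pull-down. SQLE was lower in each pair, with log2 differences of -0.23 and -0.19 in input and -0.13 and -0.22 in pull-down. HMGCS1 was higher by 0.12 and 0.065 in input and by 0.15 and 0.13 in pull-down. These 3 members had the same sign in all 4 pairs. Input and pull-down of a culture come from the same RNA, so that the 4 pairs rest on 4 cultures. The share of all tested genes with the same sign in all 4 pairs was not computed, and the count was not tested. IDI1 and SREBF2 kept their sign in input alone (-0.094 and -0.022 for IDI1, 0.095 and 0.073 for SREBF2), and DHCR7 (0.24 and -0.033), INSIG1 (0.084 and -0.18) and SC5D (-0.18 and 0.078) had opposite signs in replicates 1 and 3. FDFT1 and SQLE act at consecutive steps, and their estimates had opposite signs. Pairing FA and CA by number rests on the library names. The study's methods list exposures on several dates, with clean air and formaldehyde run in parallel, and do not tie the numbers 1 and 3 to dates.

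**Figure D3:**
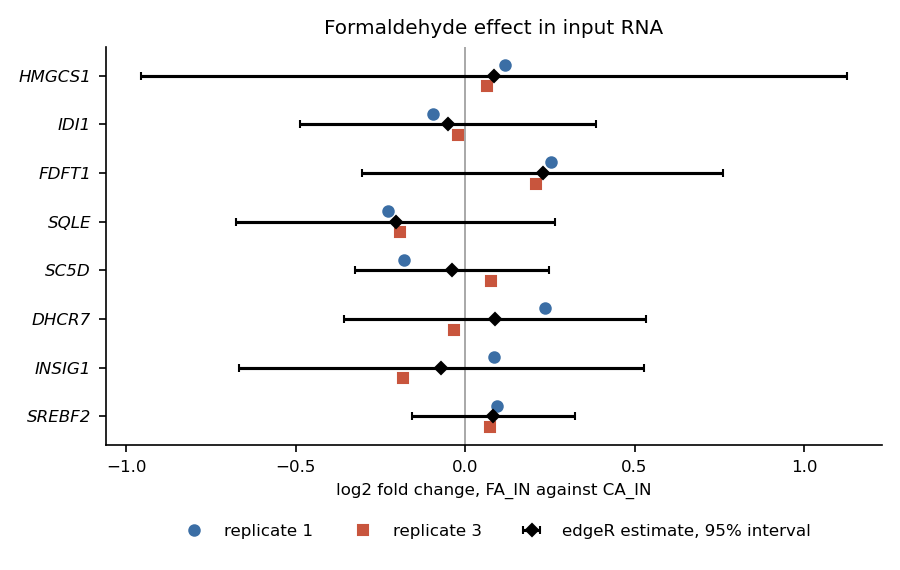
Formaldehyde effect on each of the 8 genes in input RNA as log2 fold change (FA_IN against CA_IN); diamonds with bars are the edgeR estimate with its 95% interval over all 8 libraries, circles and squares the differences within replicate 1 and replicate 3. Every interval includes 0, from the widest in HMGCS1 (-0.96 to 1.13) to the narrowest in SREBF2 (-0.16 to 0.33).

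These intervals come from the fit without pairing, and they were widest for HMGCS1 and INSIG1, the members with the largest gap between replicates. For HMGCS1 the 95% interval ran from -0.96 to 1.13, which is a level of 0.515-fold to 2.18-fold that in clean air. For SREBF2 and SC5D the intervals were narrower, from a 0.896-fold to a 1.25-fold level and from a 0.798-fold to a 1.19-fold level. None of the 43 genes of the 6 pathway lists passed the test in this comparison. The lowest and highest estimates were -0.068 (NSDHL) and 0.22 (TM7SF2) in the sterol branch, -0.18 (MYLIP) and 0.12 (SREBF1) in SREBP control, -0.051 (ABCA1) and 0.19 (ABCG1) in efflux, and -0.036 (SCD) and 0.28 (FASN) in fatty acid synthesis. The upper mevalonate list ran from -0.10 to 0.16 (PMVK) and the uptake list from -0.12 to 0.18.

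The comparison of pull-down with input asked which transcripts were enriched by the 8-oxoG antibody. DHCR7, the last enzyme of the pathway to cholesterol, was the member with the highest ratio in both treatments. In clean air its values in input and pull-down were 88.7 and 107 CPM in replicate 1 and 120.3 and 152 CPM in replicate 3, and after formaldehyde they were 105 and 117 CPM and 118 and 146 CPM. The log2 ratio was 0.31 ± 0.20 (SE) in clean air and 0.24 ± 0.20 after formaldehyde in the fit without pairing, in which 0 of 8 members were called in either treatment (unadjusted p under 0.05 for 0 of 8, and 0 of 8 by DESeq2), against a background of 1.91% in clean air and 1.5% after formaldehyde.

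Input and pull-down of a culture are fractions of the same RNA, and a fit with the RNA pool as a block removes the gap between cultures. In that fit DHCR7 was higher in pull-down in clean air (log2 ratio 0.30 ± 0.066, adjusted p = 0.0023, edgeR) and after formaldehyde (0.24 ± 0.067, adjusted p = 0.023). SREBF2 was higher in clean air (0.21 ± 0.063, adjusted p = 0.023), and its value after formaldehyde was 0.10 ± 0.063 (adjusted p = 0.38, edgeR). The pool-blocked fit thus called 2 of 8 members in clean air and 1 of 8 after formaldehyde, all higher. The background was 17.4% and 10.1% in either direction. Of the 18242 tested genes, 2111 were called higher in clean air and 995 after formaldehyde. With 8 members these shares are coarse, and they were not compared by a test. FDFT1 did not pass, with log2 ratios of 0.17 ± 0.061 in both treatments (adjusted p = 0.055 and 0.081, edgeR), nor did SC5D, whose ratio in clean air was -0.21 ± 0.080 (adjusted p = 0.073). With both libraries of CA replicate 3 left out, the adjusted p of DHCR7 in clean air was 0.28, and without those of FA replicate 3 it was 0.50 after formaldehyde. That of SREBF2 in clean air was 0.051 to 0.67 with any 1 of the 4 cultures left out, and that of SC5D in clean air 0.018 without FA replicate 1 and 0.017 without FA replicate 3.

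The ratio within each culture, from its own input and pull-down, shows the spread behind these estimates. DHCR7 had 0.27 and 0.33 in replicates 1 and 3 of clean air and 0.16 and 0.31 after formaldehyde. FDFT1 had 0.14, 0.20, 0.16 and 0.18 in the same order, and SREBF2 0.18, 0.24, 0.085 and 0.12. These 3 members were above input in all 4 cultures, as were 23.3% of tested genes, and no member was below input in all 4, as were 17.5% of tested genes. The libraries of pull-down and input did not overlap for SREBF2 and SC5D in clean air, against 41% of tested genes, and for no member after formaldehyde, against 37.4%. SC5D gave -0.13 and -0.30 in clean air and 0.11 and -0.23 after formaldehyde, and HMGCS1 -0.022 and -0.14, then 0.0097 and -0.075. INSIG1 stayed between -0.029 and 0.012 in every culture, while SQLE ran from -0.017 to 0.17 and IDI1 from -0.094 to 0.14.

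The sign of a small ratio depended on the scale. Scaled by library size in place of TMM, the median of all genes was 0.16 in clean air and 0.17 after formaldehyde, and on that scale HMGCS1 and IDI1 in clean air and HMGCS1, SC5D and INSIG1 after formaldehyde had positive ratios. The split of calls over all genes moved from 27 higher and 322 lower to 821 higher and 336 lower in clean air, and from 6 and 268 to 318 and 243 after formaldehyde. On the authors' TPM, all 8 members were higher in pull-down than in input in all 4 cultures, and so was the median gene, by 0.86 to 0.98 on the log2 scale. Relative to that median the members lay between -0.29 and 0.34. The ratios below are therefore read beside those of other genes.

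In the pathway lists no gene passed the fit without pairing, and in the pool-blocked fit the sterol branch had 5 of 9 genes higher and 1 lower in clean air, and 4 of 9 higher and 0 lower after formaldehyde. The upper mevalonate list had 4 of 7 higher and 1 lower, then 3 of 7 higher and 0 lower. Over all tested genes that fit called 17.4% in clean air and 10.1% after formaldehyde, in either direction. The 3 remaining lists of SREBP control, uptake and efflux had 1 of 6, 2 of 9 and 2 of 4 higher in clean air, and 0, 0 and 1 after formaldehyde, with 0 lower in each; the fatty acid list had 3 of 8 and 2 of 8 higher and 0 lower. The median log2 ratio in clean air was 0.24 in the sterol branch and 0.25 in the upper mevalonate list, beside 0.021 for the members and 0.017 for all genes. MVD (0.48, adjusted p = 0.0002 in clean air), TM7SF2, a sterol reductase (0.36, adjusted p = 0.0028), and EBP, the sterol isomerase (0.31, adjusted p = 0.0030), were among those higher in both treatments by edgeR. MSMO1, a methylsterol oxidase (-0.29, adjusted p = 0.0042), and GGPS1 (-0.24, adjusted p = 0.045, edgeR) were the genes lower in clean air.

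The order of the members in this comparison followed the guanine content of their transcripts, which the choice of members did not use. SREBF2 and DHCR7 had the highest share of guanine in their leading isoform, 27.7% and 27.6%, FDFT1 and SQLE 24.5% and 24.4%, INSIG1 and HMGCS1 23.0% each, IDI1 21.1% and SC5D 19.8%, in the GENCODE 44 sequence of the isoform. Over the 8 members the share was correlated with the log2 ratio at Spearman's rho = 0.95 in clean air and 0.86 after formaldehyde. Over the 17933 of 18242 tested genes whose leading isoform was found (98.3%), rho was 0.54 and 0.41. For GC share in place of guanine share, rho was 0.95 and 0.86 over the members and 0.53 and 0.38 over all these genes. All genes share the same libraries. Guanine share and GC share were themselves correlated over the members (rho = 0.95), so that the 2 measures cannot be told apart here. These are descriptions over genes with no test.

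The stretches below illustrate the guanine shares already given. They were chosen to match those shares, so they add no separate evidence. For the 2 members highest and the 2 lowest in the pull-down order of clean air, DHCR7, SREBF2, HMGCS1 and SC5D, a stretch of 60 coding bases is shown, 5′ to 3′ on the strand of the gene, with guanines in capitals. Each is the first stretch within a single exon of the leading isoform whose number of guanines is nearest to that isoform's overall share. They lie in coding exons at chr11:71444865-71444924, chr22:41866855-41866914, chr5:43298881-43298940 and chr11:121303392-121303451 (GRCh38), in that order, and hold 17, 17, 14 and 12 guanines.
DHCR7: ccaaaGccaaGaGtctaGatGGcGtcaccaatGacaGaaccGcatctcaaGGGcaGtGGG
SREBF2: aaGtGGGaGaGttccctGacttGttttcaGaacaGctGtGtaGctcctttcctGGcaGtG
HMGCS1: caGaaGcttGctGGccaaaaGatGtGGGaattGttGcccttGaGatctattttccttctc
SC5D: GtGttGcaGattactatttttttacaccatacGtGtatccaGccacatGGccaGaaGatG

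Members were then set beside genes of like composition, those within 1 percentage point of guanine share. In clean air the median log2 ratio of the 2441 genes like DHCR7 was 0.16, and DHCR7 (0.31) stood at their 81.1st percentile. FDFT1 (0.18) stood at the 81.6th percentile of 2916 genes with a median of 0.020. SREBF2 (0.21) stood at the 59.4th percentile of 2460 genes with a median of 0.17, and SC5D (-0.21) at the 32nd of 2150 genes with a median of -0.14. The remaining members stood between the 34.9th (HMGCS1) and the 63.4th (IDI1). After formaldehyde the 8 members stood between the 47.3rd (HMGCS1) and the 84.9th percentile (FDFT1).

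**Figure D4:**
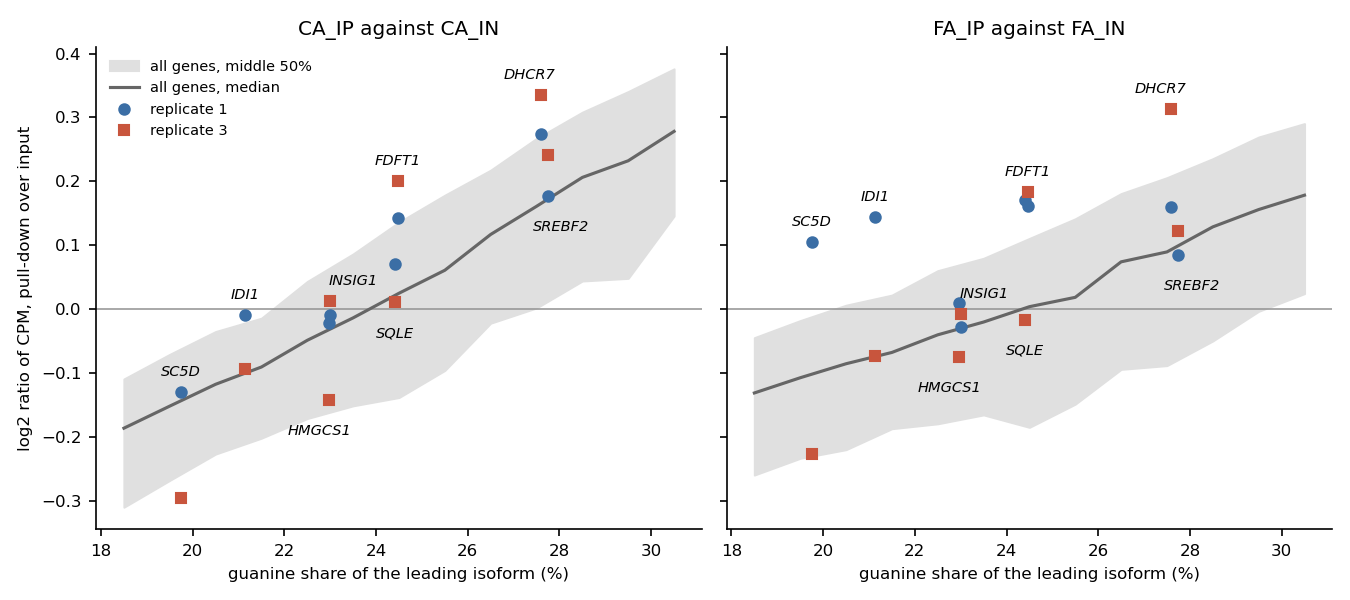
Log2 ratio of CPM in pull-down over input against the guanine share of the leading isoform, in clean air (left) and after formaldehyde (right); circles and squares are replicates 1 and 3 of the 8 genes, the grey line is the median and the band the middle 50% of all genes in bins of 1 percentage point. SC5D (19.8% guanine) is lowest in clean air and DHCR7 (27.6%) highest, the direction in which the all-gene median rises. Some points lie above the band, such as DHCR7 in replicate 3 of clean air (0.33) and SC5D in replicate 1 after formaldehyde (0.11). SC5D in replicate 3 of clean air (-0.30) lies below it. Points are single cultures, and the band has 1 set of values per treatment.

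The last comparison asked whether the pull-down ratio differed between formaldehyde and clean air. No member passed (0 of 8, adjusted p = 1.00 by edgeR for each, with 0 of 8 at an unadjusted p under 0.05 and 0 of 8 by DESeq2), and neither did any of the 18242 tested genes by edgeR without pairing, a background of 0%, with 195 at an unadjusted p under 0.05 and 3 called by DESeq2. With the RNA pool as a block, 0 of 8 members were called against a background of 0.137% (20 genes higher and 5 lower). The largest differences were 0.14 ± 0.18 (SE) for SC5D and -0.11 ± 0.15 for SREBF2. The 95% intervals with the RNA pool as a block ran from -0.094 to 0.38 for SC5D and from -0.29 to 0.081 for SREBF2, and over the 8 members none reached beyond a log2 difference of 0.38 in either direction.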

How the data were processed

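The authors trimmed reads with cutadapt, aligned them with STAR 2.6.0a to GRCh38 (Ensembl 94 annotation) and estimated isoform abundance with RSEM 1.2.25; the deposited tables, 1 per library, hold RSEM expected counts, not normalized, and TPM, which the authors' tool scaled by isoform length and library total. The 3 deposited tables of the authors' own DESeq2 comparisons (log2 fold changes and p-values) were not used.

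Expected counts were summed per gene and rounded. Genes with at least 10 counts in at least 2 of 8 libraries (18242) were tested with edgeR 4.0.16 (TMM, quasi-likelihood, prior count 0.125) in R 4.3.3 over 4 groups, with Benjamini-Hochberg adjustment over all of them and a limit of 0.05; DESeq2 1.42.0 was an alternative. Pull-down and input of a culture come from the same RNA by the study's methods. A fit with the RNA pool as a block is given beside the unpaired fit. The estimated coefficient of variation between replicates was 0.138 in the unpaired fit. With the block the value was 0.051, which is the variation left once differences between cultures are removed. The fits were run first on simulated counts, which had no gap between cultures and changes larger than those estimated for the members. They did not test the blocked fits where cultures differ, nor changes as small as those of the members. Differences per replicate are log2 ratios of CPM with no pseudocount.

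Replicate numbers come from the library names, since the titles carry none. The members and lists were chosen with earlier results of these data known. Named list genes were those past the limit (the 3 largest where more than 5 passed) or otherwise the lowest and highest of a list in a comparison; the extremes of the upper mevalonate and uptake lists are in part given without names. In the pool-blocked fit and in the contrast of replicates, list genes were chosen after their values were seen. Guanine shares and windows came from GENCODE 44 transcripts, matched by transcript identifier (8112 of 17933 with the length in the deposited tables), and promoters from RefSeq (GRCh38.p14). Counting error covers counting alone: without molecular identifiers, copies made by PCR are counted as separate reads.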

Additional observations from a re-analysis of the deposited data

How the results depend on the processing

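The members' log2 fold changes were recomputed under 9 alternatives with all libraries kept (264 values where the alternative could be fitted). Of these, 243 kept their direction and their side of the limit, 4 passed the limit (DHCR7 and SREBF2 under the pairings described here) and 17 changed sign, all of them in values under 0.15 in size. By library size, the pull-down ratios were 0.043 for HMGCS1 and 0.089 for IDI1 in clean air and 0.11 for HMGCS1, 0.094 for SC5D and 0.15 for INSIG1 after formaldehyde, where the median of all genes moved by as much. INSIG1 in clean air was -0.012 and -0.028 by DESeq2 on 8 and on 4 libraries, -0.031 with no filter and -0.031 with a mean count of at least 50. The difference between treatments for FDFT1 was 0.0039 by DESeq2 on 8 libraries, 0.016 by library size, 0.017 with no filter, 0.028 with the mean count filter and 0.00023 with the RNA pool block, and for INSIG1 it was 0.00024, 0.00027 and 0.011 by library size, with no filter and with the mean count filter.

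Leaving out single libraries, in fits without pairing, took several members across 0. The group left with 1 library then held only replicate 1 or only replicate 3, so that the gap between replicates entered these estimates. Over the fits that each lacked 1 library, the formaldehyde effect in input ran from -0.51 to 0.68 for HMGCS1, -0.33 to 0.16 for IDI1, -0.025 to 0.48 for FDFT1, -0.49 to 0.024 for SQLE, -0.26 to 0.12 for SC5D, -0.12 to 0.32 for DHCR7, -0.35 to 0.27 for INSIG1 and -0.0039 to 0.15 for SREBF2. Pull-down against input in clean air ran from -0.63 to 0.50 for HMGCS1, -0.25 to 0.15 for IDI1, -0.11 to 0.42 for FDFT1, -0.17 to 0.26 for SQLE and -0.36 to 0.34 for INSIG1, and after formaldehyde from -0.54 to 0.54 for HMGCS1, -0.19 to 0.30 for IDI1, -0.048 to 0.42 for FDFT1, -0.15 to 0.34 for SQLE, -0.24 to 0.15 for SC5D and -0.20 to 0.20 for INSIG1. The difference between treatments ran from -0.53 to 0.67 for HMGCS1, -0.12 to 0.38 for IDI1, -0.24 to 0.28 for FDFT1, -0.19 to 0.33 for SQLE, -0.0022 to 0.38 for SC5D, -0.30 to 0.21 for DHCR7, -0.35 to 0.34 for INSIG1 and -0.21 to 0.0035 for SREBF2. With the RNA pool as a block and each culture left out (chosen after seeing the data), the ratio ran from -0.041 to 0.012 for INSIG1 in clean air, and after formaldehyde from -0.072 to 0.034 for HMGCS1, -0.071 to 0.17 for IDI1, -0.014 to 0.19 for SQLE and -0.22 to 0.13 for SC5D. A group left with 1 library was assumed to vary like the others.

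Calls over all genes depended on the fit. For formaldehyde in input (0 higher, 1 lower) they were 0 and 3 by DESeq2 on 8 libraries, 1 and 2 by DESeq2 on 4, 0 and 0 by edgeR on 4, 21 and 79 with no filter, and 0 to 1 lower with a library left out. For pull-down in clean air (27 higher, 322 lower), the number higher was 131 by DESeq2 on 8 libraries, 15 by DESeq2 on 4, 6 by edgeR on 4, 821 by library size, 10 with the mean count filter and 4 to 12 with a library left out, with 184 to 310 lower; with no filter it was 147 higher and 539 lower, and with the RNA pool block 2111 and 1067. After formaldehyde (6 higher, 268 lower), the number higher was 18, 19, 13 and 318 under the first 4 of these, 63 with 515 lower with no filter, 995 with 840 lower under the RNA pool block, and 1 to 11 with 119 to 272 lower with a library left out. For the difference between treatments (0 and 0), 3 were higher by DESeq2, 29 higher and 23 lower with no filter, 20 and 5 with the RNA pool block, and 0 to 5 higher with a library left out. The RNA pool block called 2 members in clean air and 1 after formaldehyde, against 0 without it.

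Libraries with the same number in different groups deviated together (r = 0.20 to 0.38 over genes for the 6 pairs of groups). Input and pull-down of 1 treatment share their cultures (r = 0.38 in clean air and 0.25 after formaldehyde). Between treatments r was 0.20 to 0.28, a hint from the data that rests on 4 cultures. A fit with the number as a replicate block called 14 genes higher and 244 lower for formaldehyde in input and no member. In it the 95% interval of HMGCS1 was -0.050 to 0.23, and those of FDFT1 (0.095 to 0.37, unadjusted p = 0.0029, adjusted 0.096, edgeR) and SQLE (-0.37 to -0.051, unadjusted p = 0.013, adjusted 0.20, edgeR) did not include 0. It called 1235 and 706 in clean air pull-down with 1 member, DHCR7 (adjusted p = 0.029, edgeR; SREBF2 0.056), then 367 and 586 after formaldehyde with no member (DHCR7 adjusted p = 0.13), and 3 higher for the difference. Of the sterol branch it called 4 higher and 1 lower in clean air, of the upper mevalonate list 2 and 0, and none of either after formaldehyde (adjusted p of MVD 0.075, EBP 0.063 and TM7SF2 0.16, edgeR). The gap between replicates kept its sign for all 8 members by library size and by the authors' TPM, 2 alternatives chosen after seeing the data, and the largest shifts were those of INSIG1 and FDFT1, which were at 0.57 and 0.53 by TPM. With the length of the leading isoform, the level of FDFT1 was 42.0 TPM and that of IDI1 35.2 TPM, with the same order of the first 4 members. Per length, the leading isoform of INSIG1 held 55.2% and that of FDFT1 33.1%. With 2 libraries a group, the spread between cultures limits the fit without pairing: the SE of HMGCS1 for formaldehyde in input was 0.46 there and 0.066 with the replicate block.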

Other observations

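The gap between replicates is given here by group for some genes of fatty acid synthesis, for SREBF1 and for the efflux and oxysterol-sensing list. The values were singled out after they were seen and carry no test. FADS1, a desaturase of polyunsaturated fatty acids, differed between replicates 3 and 1 by a log2 CPM of 0.71 in CA_IN, 0.66 in FA_IN, 0.69 in CA_IP and 0.64 in FA_IP, nearly the same in each group. FASN differed by 1.01 in CA_IN and 1.11 in CA_IP, and by 0.47 in FA_IN and 0.67 in FA_IP. For SREBF1, which codes for SREBP1, the differences were 0.42 and 0.55 in the clean air fractions and -0.22 and -0.016 in the formaldehyde fractions. ABCA1, the exporter of cholesterol to apolipoproteins, gave 0.56 and 0.68 in clean air and -0.19 and 0.064 after formaldehyde. In both of these genes replicate 3 was above replicate 1 in clean air, and after formaldehyde the gap was smaller or of the other sign. The other genes of the efflux list did not share this form. NR1H3, an oxysterol receptor gene, gave 0.29 in CA_IN, 0.29 in FA_IN, 0.43 in CA_IP and 0.74 in FA_IP, and NR1H2, its paralog, gave -0.057, -0.29, -0.051 and -0.23 in the same order. ABCG1, a sterol exporter, gave 0.12, -0.78, -0.0056 and -0.23.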
